A study of Mus musculus with 289 samples.

Results

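The epidermal proteases and protease inhibitors measured here were the 44 genes of the deposited count table whose symbols name a kallikrein (Klk, 10 genes), a clade B serpin (Serpinb, 16), a Kazal-type inhibitor (Spink, 6), a cystatin (Cst, 2) or a cathepsin (Cts, 10). The table held 15019 genes, and the stefin A genes, which are also cystatins, were left out. The cells were tomato-positive keratinocytes sorted from the tail skin of adult female Lrig1-EGFP-ires-CreERT2 mice that also carried Rosa26-fl/STOP/fl-tdTomato, on a mixed CBA and C57BL/6 strain. All animals, controls included, received 1 application of hydroxytamoxifen on the tail, which marks the cells in which the Lrig1 locus drives the recombinase, together with their later progeny. The skin then received either vehicle or PRT4165, a compound that blocks Ring1A and Ring1B, the enzymes with which the Polycomb complex PRC1 ubiquitinates histone H2A, and all cells carry the time label t0. The question behind the comparison was whether blocking this complex changes transcription in uninjured skin. Each treatment had 2 plates, replicate 1 and replicate 2, and 274 of 289 cells passed the filter, 70 and 55 of them from vehicle plates and 72 and 77 from PRT4165 plates. Per the study's methods, the replicates are 2 independent experiments of 4 biological replicates each, and the labels do not tie single cells to animals, so the p-values measure the spread between plates only. The plates marked AC were read as vehicle, since the labels name no treatment besides vehicle and PRT4165, and the treatment labels also carry a code (PR9 with AC, PR12 with PRT) that is not explained and that cannot be told apart from the treatment.

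Kallikreins are secreted serine proteases. In the outer epidermis Klk5 and Klk7 cut the proteins of the corneodesmosomes that hold dead cells together, and Spink5 (LEKTI) is the inhibitor that restrains them. Cathepsins are mostly lysosomal cysteine and aspartic proteases, and cystatins such as Cst6 (cystatin M/E) and the ubiquitous Cst3 (cystatin C) block the cysteine kind, with Ctsl among the targets of Cst6. Clade B serpins are mostly intracellular inhibitors of serine or cysteine proteases, and some of them, Serpinb5 (maspin) for one, do not inhibit any known protease. As keratinocytes leave the basal layer they replace Krt14 with Krt10, and the ratio of these transcripts was used to order the cells.

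The 10 Klk genes lie side by side on chromosome 7 (chr7:43690418-43851181, GRCm38) and 11 of the Serpinb genes on chromosome 1 (chr1:106861173-107610484), and a few promoters are shown to compare neighbours whose differences had the same sign. Promoters of 34 of the 44 genes were matched in RefSeq (GRCm38.p6), 42 in all, and the 250 bases before the start site were searched on both strands for TGANTCA, a form of the AP-1 motif, and for CCACACCC, a CACCC box bound by Krüppel-like factors. The AP-1 motif was present in 7 of the 42 promoters and in 6.75% of 32851 promoters of the same length. The 7 belonged to 6 genes, Serpinb2, Serpinb5, Serpinb7, Serpinb8, Serpinb11 and Serpinb12, all of the chromosome 1 cluster, and the 2 windows of Serpinb2 overlap and share 1 match. The CACCC box was in 2 of the 42 and in 3.20% of all promoters, and no Klk promoter held either motif. The windows below run 5′ to 3′ on the gene's strand, with the motif in capitals (TGANTCA, and GGGTGTGG as the reverse of the CACCC box). Serpinb5 (chr1:106860925-106861174, plus strand), the upstream start of Serpinb12 (chr1:106934199-106934448, plus strand) and Serpinb2 (chr1:107511173-107511422, plus strand) are shown. Each holds a match and had a higher fitted level in cells with more Krt10. Serpinb3a, Serpinb3b, Serpinb3c and Serpinb3d also had higher fitted levels there (log2 differences 7.24, 4.58, 4.39 and 4.79), and their windows hold neither motif. Serpinb11 holds 2 AP-1 matches and had a log2 difference of -0.09. Klk7 (chr7:43811044-43811293, plus strand) was the member whose difference passed the test, and its window holds no match. A match is a description of the letters and not of a bound site.
Serpinb5: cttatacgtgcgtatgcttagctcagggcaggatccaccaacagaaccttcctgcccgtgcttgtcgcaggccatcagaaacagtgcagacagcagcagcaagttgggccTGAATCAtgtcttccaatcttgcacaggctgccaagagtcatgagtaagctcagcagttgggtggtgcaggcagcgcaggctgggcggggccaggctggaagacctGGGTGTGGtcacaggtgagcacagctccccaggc
Serpinb12: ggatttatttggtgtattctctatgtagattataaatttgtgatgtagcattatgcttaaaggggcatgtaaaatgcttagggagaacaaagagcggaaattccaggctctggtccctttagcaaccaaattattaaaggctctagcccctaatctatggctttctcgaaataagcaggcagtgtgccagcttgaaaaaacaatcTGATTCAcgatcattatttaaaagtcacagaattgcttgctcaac
Serpinb2: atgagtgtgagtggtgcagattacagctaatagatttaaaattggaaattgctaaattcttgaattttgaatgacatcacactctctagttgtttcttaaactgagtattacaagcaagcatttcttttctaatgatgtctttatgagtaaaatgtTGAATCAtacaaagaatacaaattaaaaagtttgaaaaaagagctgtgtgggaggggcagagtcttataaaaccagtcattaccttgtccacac
Klk7: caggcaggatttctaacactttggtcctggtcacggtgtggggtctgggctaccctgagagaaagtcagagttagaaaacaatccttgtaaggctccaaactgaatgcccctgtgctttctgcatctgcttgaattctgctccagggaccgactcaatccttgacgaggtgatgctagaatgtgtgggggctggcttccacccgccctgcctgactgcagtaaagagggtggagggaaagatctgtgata

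Cells were split by log2((Krt10 + 1)/(Krt14 + 1)) of their counts. At 0 or above a cell was in the Krt10 class (95 cells; 23, 17, 23 and 32 on vehicle replicates 1 and 2 and PRT4165 replicates 1 and 2, the order used throughout) and below 0 in the Krt14 class (37, 36, 41 and 40 cells). The 25 cells with fewer than 50 counts of both genes together had no class. A class is a range of the ratio and not a cell type, and 17 cells lay within 1 of the limit. Markers that the ratio did not use were compared between the classes. The 5 genes of the basal list besides Krt14 (Krt5, Col17a1, Itga6, Itgb4 and Trp63) were each lower in the Krt10 class on every plate. Krt5 was at 653, 539, 439 and 363 CPM (counts scaled to the library's total) in the Krt14 class and 51.8, 389.7, 50.4 and 149.5 in the Krt10 class, and the suprabasal keratin Krt1 was at 0.114, 0.132, 50.5 and 17.5 against 565, 1870.1, 872 and 2628 CPM. Of 8 immune markers only Ptprc and H2-Ab1 were among the genes analysed here, and their sum reached at most 1.98 CPM in any class or plate. The 4 measured fibroblast markers summed to between 0.497 and 145.8 CPM in a class of a plate, highest in the Krt14 class of PRT4165 replicate 1. The upper hair follicle list (6 genes, Krt79 and Lrig1 among them) was at 20019.6, 6780.1, 9363 and 2456 CPM in the Krt14 class and 32597, 26603, 25760.3 and 14583 in the Krt10 class. Its genes were present in both, but 1 gene, Defb6, was the largest part of the sum. Defb6 was at 14682, 3424, 7317 and 1207 against 26958, 16821, 20726 and 11736 CPM. Lrig1 was at 42.2, 15.6, 21.6 and 15.6 against 5.66, 44.8, 26.3 and 7.34 CPM. The endothelial gene Pecam1 was found at 210.2 to 609 CPM per plate, and the other listed endothelial markers were not among the genes analysed here. Plates summed to between 25761756 and 41592716 estimated counts, and the median cell had 141985, 506827, 429383 and 538754, so vehicle replicate 1 was the shallowest.

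The 44 genes took 4.38, 4.96, 2.18 and 4.04% of the counts of the 4 plates, and a single gene, Cst6, supplied 77.3% of these. With the counts of all plates together, each family had such a leader: Klk7 gave 69.3% of the Klk counts, Serpinb5 78.5% of Serpinb, Spink5 97.9% of Spink, Cst6 99.01% of Cst and Ctsl 67.7% of Cts. On PRT4165 replicate 1, however, Klk10 was above Klk7 (757 against 594 CPM). Per kilobase of the longest transcript, the mean level over plates was 7583 CPM for Cst6, 1017 for Serpinb5, 853 for Klk7, 346 for Klk10, 341 for Cst3, 244 for Spink5 and 192.9 for Ctsl. Cst6 stood above the rest on every plate, and from Serpinb5 down neighbours in this order overlapped between plates. Klk10, for one, had 154.3, 826, 757 and 160.5 CPM, before the division by length. At the other end, 8 of the 44 genes had a count in fewer than 10 of the 274 cells and did not pass the filter on low counts: Klk12, Klk14, Serpinb6b, Serpinb6c, Serpinb9, Spink12, Spink14 and Ctsq. The remaining 36 were tested.

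Breadth and level were not the same. Cst3 was found in 96.7% of the cells, Serpinb5 in 93.1%, Ctsb in 78.8% and Cst6 in 74.1%. Klk7 was found in 28.5% and Klk10 in 10.6%, so the high Klk sums came from few cells: 1 cell gave 77.5% of the Klk7 counts of vehicle replicate 1, and 1 cell per plate gave 61.2, 68.9, 78.9 and 67.3% of the Klk10 counts. A cell of the Krt14 class had a median of 9 of the 44 genes detected and a cell of the Krt10 class 14. With each cell thinned to 50000 counts (12 and 3 shallower cells left out) the medians were 8 and 13. In these sums, fewer cells with a transcript and less of it per cell cannot be told apart.

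**Figure D1:**
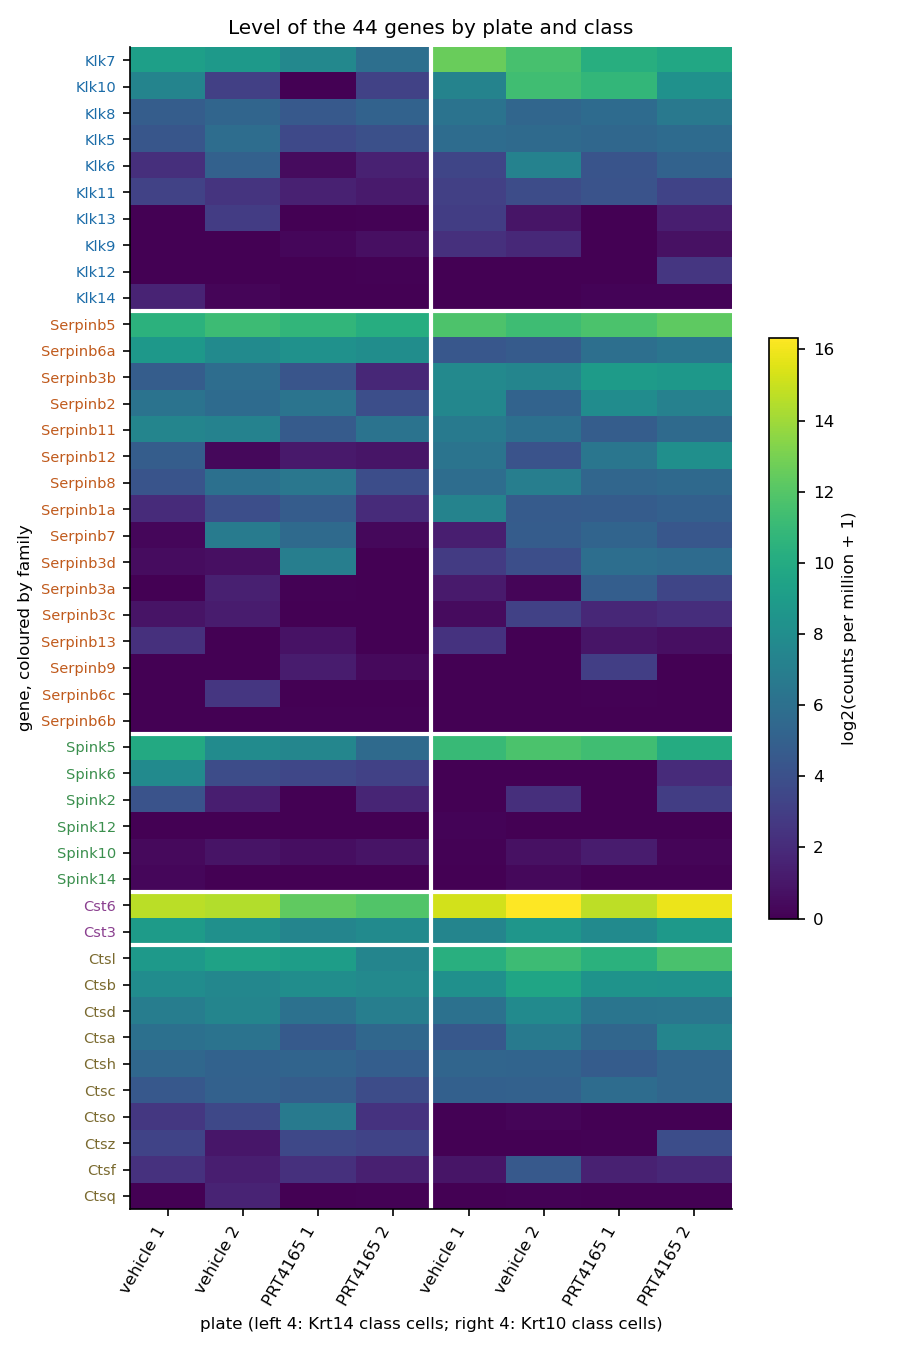
Level of the 44 genes on each plate, as log2(CPM + 1) by colour, with 1 row per gene (coloured by family, ordered by mean level) and 1 column per plate for the Krt14 class (left 4) and the Krt10 class (right 4). Cst6, Serpinb5, Klk7, Spink5 and Ctsl lead their families by mean level, and Serpinb6a, Spink6 and Ctso are darker on the right.

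By family, the kallikreins summed in the Krt14 and the Krt10 class to 814, 576, 231 and 121.3 CPM against 6601, 5876, 3129 and 1400.3 CPM. Spink genes summed to 1215, 251, 188.5 and 59.3 against 2096, 3354, 2552 and 1085 CPM and Cst genes to 26504, 22902, 5288 and 4096 against 37694, 82961, 27137 and 60783 CPM. Every plate was higher in the Krt10 class for these 3 families. Cts genes summed to 981, 1206, 1071 and 599 against 1742, 3581, 1896 and 3892 CPM and Serpinb genes to 2192, 3036, 2416 and 1498 against 4372, 2979, 4449 and 6128 CPM. Serpinb was level on vehicle replicate 2, the 1 exception. Most of these sums follow the leading gene of the family. In the Krt10 class of PRT4165 replicate 1, Klk10 was above Klk7 (1805 against 1195 CPM). In that of vehicle replicate 2, Klk10 was at 2603 and Klk7 at 3016 CPM.

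The first comparison asked which of these genes differ between cells of the Krt10 and of the Krt14 class of the same plates. Klk7, the chymotrypsin-like kallikrein of desquamation, was 591, 430.1, 194.8 and 60.2 CPM in the Krt14 class and 6284, 3016, 1195 and 895 CPM in the Krt10 class, with no overlap between the classes. It rose by 3.71 on the log2 scale (SE 0.31, 8 sums, edgeR adjusted p 0.0184), and it was the only member that passed, 1 of 36 tested, where 0.0916% of all 10920 genes passed. That call was lost without vehicle replicate 1 (edgeR adjusted p 0.0556) and without vehicle replicate 2 (0.119), with log2 differences of 3.56 and 3.84. At an unadjusted p under 0.05, 16 of 36 members were higher in the Krt10 class, against 6.13% of all genes, and 3 were lower, against 6.15%. With DESeq2, 17 were called higher and 4 lower, where 5.01% and 6.95% of all genes were.

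The classes did not overlap on any plate for 8 members that were higher in the Krt10 class (Klk7, Klk8, Serpinb3b, Serpinb5, Spink5, Cst6, Ctsb and Ctsl), against 2.03% of all genes, and for 3 that were lower (Serpinb6a, Spink6 and Ctso), against 10.2%. The median fitted log2 difference was 1.70 over the 36 members, of which 30 were above 0, and -0.21 over all genes, of which 42.7% were above 0. A gene could pass the filter on low counts through either class alone, and the sign of such a gene was fixed by how it passed. Without the TMM factors the median of all genes shifted to -0.74 with 26.4% above 0, that of the members to 1.16, and 27 of 36 stayed above 0. Fits in which each cell weighed the same, whatever its depth, called more members: limma-trend on the mean CPM of cells called 9 higher and 3 lower (1.36% and 2.63% of all genes), and on the mean over cells of log2(CPM + 1), an alternative chosen after seeing the data, 16 higher and 3 lower (4.39% and 8.60%).

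**Figure D2:**
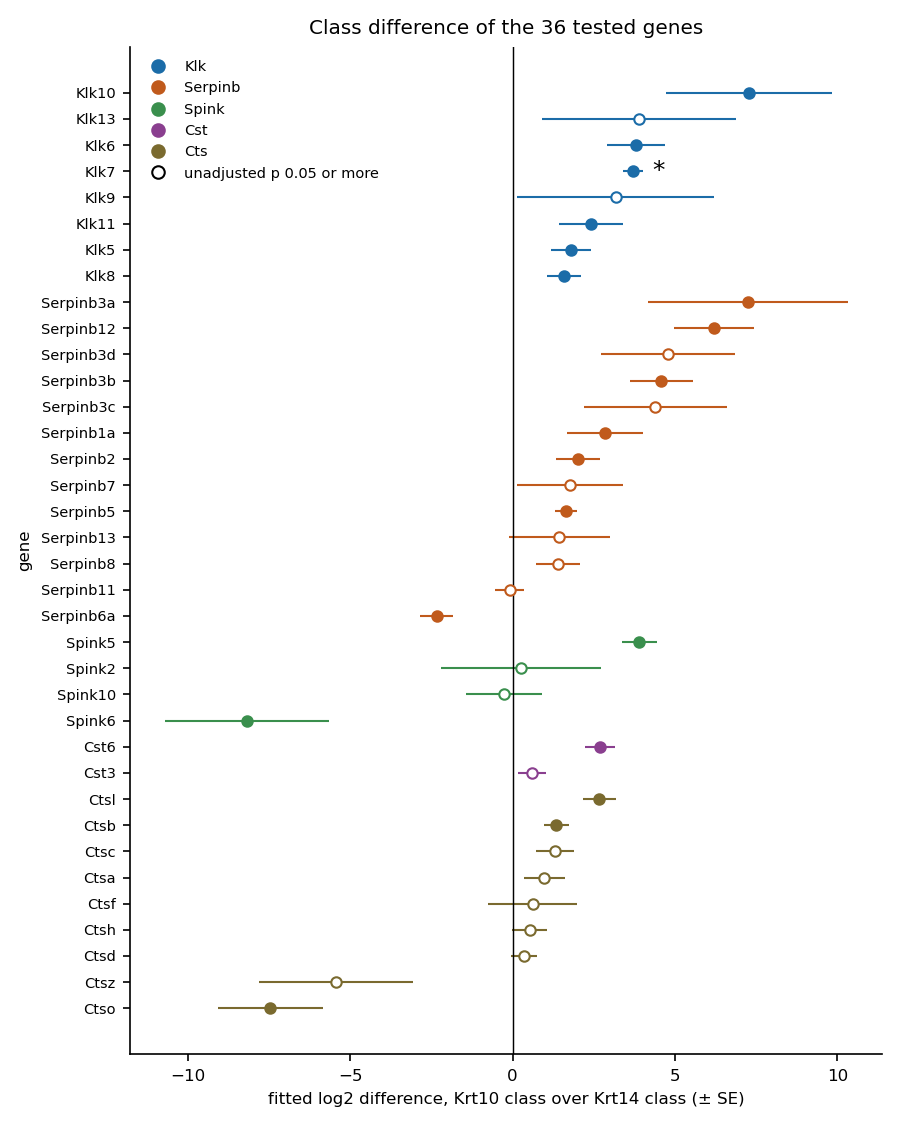
Fitted log2 difference (Krt10 class over Krt14 class, x axis) with its SE for the 36 tested genes, grouped by family (colour). Filled points have an unadjusted edgeR p under 0.05, and the asterisk marks Klk7, the only one past the adjusted threshold. All 8 Klk genes lie right of 0, while Serpinb6a, Spink6, Ctso and Ctsz lie left of it.

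All 8 tested kallikreins had a fitted log2 difference above 0, from 1.59 for Klk8 to 7.29 for Klk10, and 6 of the 8 were at an unadjusted p under 0.05. The filter on low counts admits a gene on its level in either class alone. In the fits within each class, 6 Klk genes passed it in the Krt14 class and 8 in the Krt10 class. The sign of a gene admitted through its higher class alone is no evidence of a difference. Klk5, the trypsin-like protease that activates other kallikreins, was 20.0, 55.1, 11.2 and 14.7 CPM in the Krt14 class and 54.1, 48.3, 42.3 and 51.4 CPM in the Krt10 class. Its classes overlapped through the value of vehicle replicate 2 in the Krt14 class, and its log2 difference was 1.79 (SE 0.62, edgeR adjusted p 0.301). Klk8 (neuropsin), whose transcript shares 23.7% of its 75-base stretches, the read length, with a gene on the opposite strand that these reads cannot tell apart, was 27.7, 38.8, 22.3 and 34.3 against 74.97, 41.9, 51.1 and 96.7 CPM with no overlap, a log2 difference of 1.59 (SE 0.53, edgeR adjusted p 0.280). Klk10 was 161.6, 7.39, 0 and 8.36 against 159.4, 2603, 1805 and 307 CPM. On vehicle replicate 1 it was as high in the Krt14 as in the Krt10 class, and its log2 difference of 7.29 had an SE of 2.55. Klk6 and Klk11 had log2 differences of 3.81 and 2.41 (SE 0.89 and 0.99). In cells, 72.7% of the Krt14 class had no Klk transcript at all and 7.14% had at least 3 of the 10 genes, while in the Krt10 class 22.1% had none and 47.4% had at least 3.

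Spink5, the inhibitor of these kallikreins, had 977, 236, 177.7 and 48.2 CPM in the Krt14 class and 2096, 3349.6, 2550.4 and 1075 CPM in the Krt10 class. The classes did not overlap, with vehicle replicate 1 highest in the Krt14 class, and the fitted log2 difference was 3.90 (SE 0.54, edgeR adjusted p 0.0603 over all genes). Spink5 passed in 7 of its 14 alternative fits, with adjusted p from 3.47e-13 to 0.240. Spink6, another kallikrein inhibitor, had the opposite sign. It was 220.0, 12.7, 10.2 and 8.002 CPM in the Krt14 class and listed at 0 on 3 plates and at 3.11 CPM on PRT4165 replicate 2 in the Krt10 class, from 24 cells with a count in all, so that its fitted value depends on the prior count (log2 difference -8.19, SE 2.53, edgeR adjusted p 0.250). Spink2 and Spink12 had counts in 11 and 2 of the 274 cells, and the fitted difference of Spink2 changed sign in 5 alternatives.

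Cst6 (chr19:5344705-5349574) was the highest of all members. It was 26008, 22602, 5118 and 3872 CPM in the Krt14 class and 37519, 82572, 26916 and 60352 CPM in the Krt10 class, so even the lowest Krt10 plate stood just above the highest Krt14 plate. Its log2 difference was 2.70 (SE 0.46, edgeR adjusted p 0.0841), and it passed in 6 of 14 alternatives. Within the Krt10 class 12, 10, 9 and 12 cells of 23, 17, 23 and 32 had at least 10000 CPM of this 1 transcript. Within the Krt14 class these were 6, 3, 1 and 6 cells, 16 in all. Of these 16 cells, 93.8% had Krt79, a keratin of the upper follicle, against 37.0% of the rest of the class. Of other genes of the upper follicle list, Krt17 was found in 87.5% against 76.8% and Lrig1 in 43.8% against 39.1%. The median log2 ratio was -2.53 in the 16 cells and -7.74 in the rest, nearer the class limit. Klk7 was found in 75% of the 16 cells against 7.97%, and the basal keratin Krt5 in 43.8% against 93.5%. By plate, Krt5 was in 16.7, 33.3, 0 and 83.3% of the high cells, so PRT4165 replicate 2 differed from the other plates. The suprabasal keratin Krt1 was in 0% of the 16 cells and in 7.97% of the rest. These cells were picked by their Cst6, so their other values are a description. Cst3, the general cystatin, was 496, 299, 169.8 and 224 against 175.5, 389, 221 and 431 CPM with overlapping classes, a log2 difference of 0.59 (SE 0.42, edgeR adjusted p 0.649) that was below 0 with equal weight per cell.

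Among the serpins, Serpinb5 was found in nearly every cell of both classes, 97.3, 94.4, 85.4 and 97.5% of the Krt14 class and 95.7, 100, 100 and 96.9% of the Krt10 class. Its level was 1441, 2357, 1705 and 1138 CPM against 3552, 2468, 3343 and 4993 CPM, which did not overlap although vehicle replicate 2 was nearly the same in both (log2 difference 1.65, SE 0.34, edgeR adjusted p 0.128). Serpinb3b, of the squamous cell carcinoma antigen group, was 26.7, 56.6, 18.7 and 2.48 against 209.6, 169.7, 489 and 409 CPM, again apart on all plates (4.58, SE 0.98, edgeR adjusted p 0.138). Serpinb12 was 26.7, 0.264, 1.15 and 0.929 against 78.6, 16.9, 83.5 and 286 CPM. Its classes overlapped only through vehicle replicates 1 and 2, and its log2 difference was 6.21 (SE 1.22, edgeR adjusted p 0.118). Serpinb2, the plasminogen activator inhibitor PAI-2, was 73.7, 52.2, 76.8 and 14.0 against 183.9, 36.5, 244 and 146.2 CPM and was lower in the Krt10 class on vehicle replicate 2 alone (2.01, SE 0.67, edgeR adjusted p 0.284). Serpinb3a, Serpinb3c and Serpinb3d, close relatives of Serpinb3b, had log2 differences of 7.24, 4.39 and 4.79 with SE of 3.08, 2.20 and 2.06, from 16, 31 and 14 cells. These 4 relatives share at most 8.09% of their 75-base stretches with another gene.

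Serpinb6a, an intracellular serine protease inhibitor, had the opposite difference. It was 426, 221, 300.1 and 251 CPM there and 20.8, 24.7, 60.3 and 79.2 CPM in the Krt10 class, with no overlap, lower on 4 of 4 plates (log2 difference -2.34, SE 0.50, edgeR adjusted p 0.138). It shares 20.3% of its 75-base stretches with genes on the opposite strand, so part of its counts is uncertain. Serpinb11 was 171.7, 149.2, 25.2 and 73.98 against 98.9, 65.1, 27.1 and 49.2 CPM, a log2 difference of -0.09 (SE 0.44) that turned above 0 with stricter cells, without vehicle replicate 2 and without the cells near the limit. By position, Serpinb6a and Serpinb1a (log2 differences -2.34 and 2.85) are both on chromosome 13, so fitted values of both signs lay on it. Neither passed the test. Serpinb1a had an SE of 1.17 and log2 differences of 5.32, 0.771, 0.000924 and 3.06 on the 4 plates. On vehicle replicate 1, 1 cell gave 78.5% of its counts. Of the 11 cluster genes on chromosome 1, 10 had a fitted difference above 0, while Serpinb11 in their midst did not. Here too a gene could pass the filter on low counts through either class alone.

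Of 9 cathepsins tested, 2 (Ctsb and Ctsl) were higher in the Krt10 class at an unadjusted p under 0.05 and 1 (Ctso) was lower. Ctsl, the lysosomal protease that Cst6 can block, was 464, 690.1, 542 and 170.95 CPM in the Krt14 class and 1287, 2384, 1356 and 3216 CPM in the Krt10 class (log2 difference 2.67, SE 0.50, edgeR adjusted p 0.115). The plates did not overlap, yet a smaller share of cells had the transcript in the Krt10 class, 47.8, 64.7, 39.1 and 46.9% against 62.2, 63.9, 43.9 and 60% on the 4 plates, smaller on 3 of 4. In the Krt10 class 1 cell per plate gave 80.9, 68.2, 58.3 and 73.9% of the Ctsl counts, and without that cell the sums were 277, 873, 589.6 and 883 CPM, which overlapped the Krt14 values. On the mean over cells of log2(CPM + 1) its difference was -0.09 (limma-trend adjusted p 0.924). Ctsl also shares 25.5% of its 75-base stretches with other genes. Ctsb, another lysosomal cysteine protease, was 251, 186.1, 255 and 206 against 296, 776, 336 and 324 CPM, a narrow gap on 4 of 4 plates (1.35, SE 0.39, edgeR adjusted p 0.219).

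Ctsd, the aspartic protease of the lysosome, was 119, 175.005, 66.9 and 124 against 66.5, 226, 81.8 and 85.2 CPM (0.34, SE 0.40), with the classes mixed and a sign that turned without TMM and with equal weight per cell. It shares 34.6% of its 75-base stretches with another gene model. Ctsa, Ctsc and Ctsh had log2 differences of 0.98, 1.31 and 0.52 (SE 0.64, 0.59 and 0.54), and Ctsc (dipeptidyl peptidase 1) and Ctsh changed sign in 2 and 1 of 14 alternatives. Ctso, a little-studied cysteine cathepsin, was 5.38, 10.6, 105 and 4.23 CPM in the Krt14 class and 0.0622, 0.183, 0 and 0 CPM in the Krt10 class (-7.47, SE 1.62, edgeR adjusted p 0.139). It came from 23 cells, its fitted value depends on the prior count, and 1 cell gave 96.9% of the counts of PRT4165 replicate 1, the highest plate.

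The ratio itself, taken in 5 steps over the 249 cells with a class (below -8, -8 to -4, -4 to 0, 0 to 4, and 4 and above; 64, 48, 42, 39 and 56 cells), showed at which ratios each gene was found. Klk7 was found in 3.12, 16.7, 30.95, 58.97 and 55.4% of the cells of these steps, Klk5 in 3.12, 4.17, 28.6, 46.2 and 57.1% and Klk8 in 9.38, 6.25, 19.0, 35.9 and 55.4%. Spink5 was found in 15.6, 33.3, 54.8, 76.9 and 87.5%, so it was already present in more cells of the lowest steps than the proteases it inhibits. Serpinb3b was found in 3.12, 6.25, 28.6, 61.5 and 75% and Serpinb12 in 4.69, 2.08, 4.76, 23.1 and 51.8%, so Serpinb12 was most frequent in the last step. Cst6 was at 54.7, 60.4, 83.3, 97.4 and 96.4%. Serpinb6a went from 73.4% to 37.5%, and Ctsb stayed between 76.6% and 85.4%. The median cell of the steps had 500220, 170736, 296162, 486478 and 663768 counts, so depth was lowest in the second step and highest in the last, and its part in these shares was not tested.

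**Figure D3:**
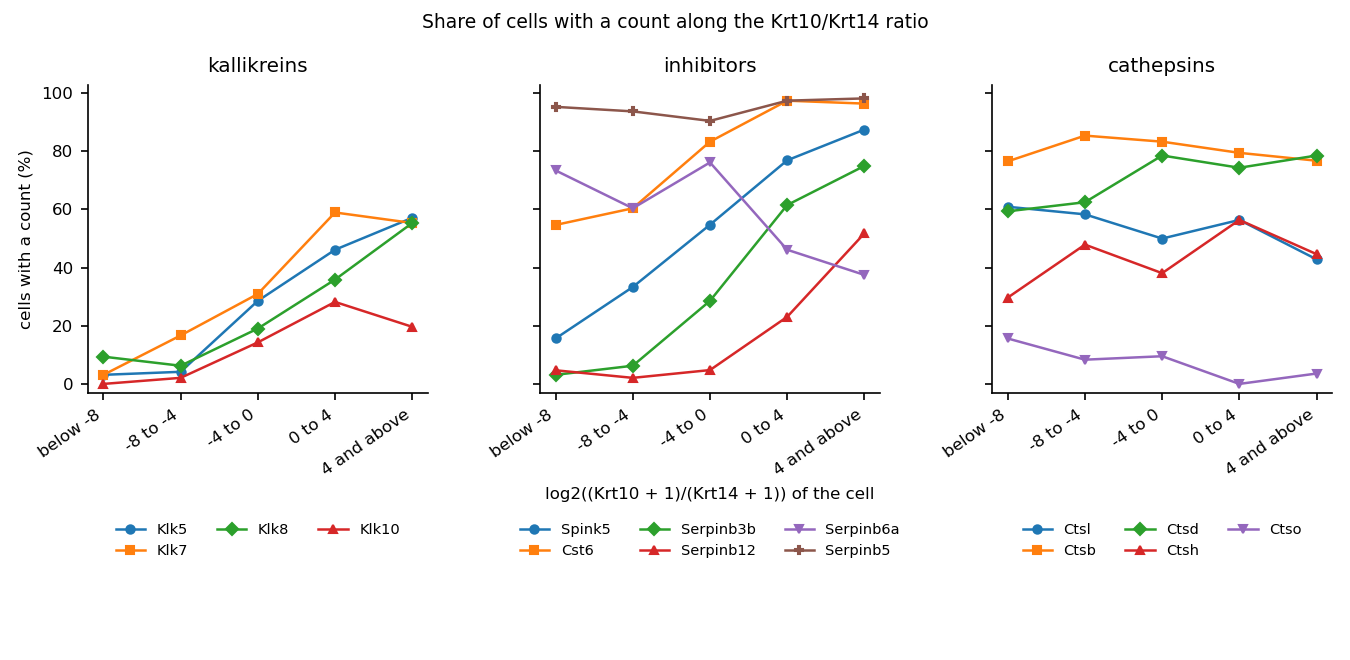
Share of cells with a count (y axis, percent) in 5 steps of the cell's log2 Krt10/Krt14 ratio (x axis) for kallikreins, inhibitors and cathepsins, with cells of all 4 plates together. Kallikreins, Spink5, Serpinb3b and Serpinb12 are more frequent to the right, Serpinb6a and Ctso to the left, and Serpinb5 and Ctsb stay level.

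Within plates, Spearman's rho of a gene's level with the ratio, over 60, 53, 64 and 72 cells of 1 plate each and so of shared handling, was above 0 on all 4 plates for 15 of the 36 members with a count on each plate and below 0 on all for 3 (Serpinb6a, Spink6 and Ctso). It was 0.423, 0.461, 0.700 and 0.713 for Spink5, 0.597, 0.593, 0.585 and 0.564 for Cst6, 0.565, 0.449, 0.654 and 0.716 for Serpinb3b and 0.527, 0.481, 0.434 and 0.513 for Klk7. For Serpinb6a it was -0.445, -0.328, -0.369 and -0.262, below 0 on 4 of 4 plates. These are descriptions across cells that are not independent replicates.

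**Figure D4:**
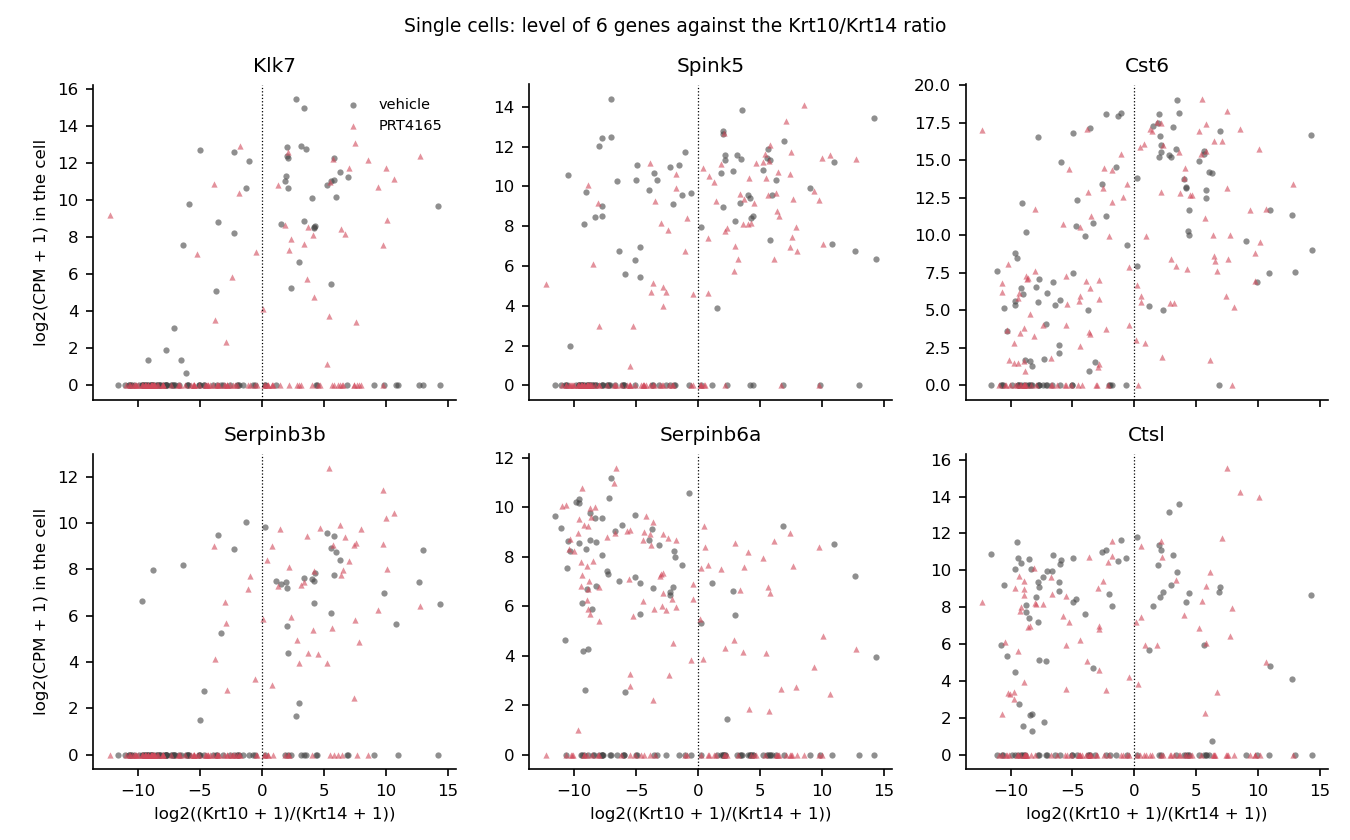
Level of 6 genes in single cells, as log2(CPM + 1) (y axis), against the cell's log2 Krt10/Krt14 ratio (x axis), with vehicle cells as grey circles, PRT4165 cells as red triangles and the class limit as a dotted line. Klk7, Spink5 and Serpinb3b are mostly at 0 left of the limit, Serpinb6a is more often above 0 there, and the highest Ctsl values are few cells on the right.

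Proteases and inhibitors were often found in the same cell. Of the 78 cells with Klk7, 69 also had Spink5 (88.5%), while Spink5 was in 36.2% of the cells without Klk7. Of the 67 cells with Klk5, 63 had Spink5 (94.0%). All 78 cells with Klk7 had Cst6, which was in 63.8% of the cells without it. Both genes of a pair were more often detected in the Krt10 class, and within that class Spink5 was in 92.6% of the 54 cells with Klk7 and in 70.7% of the 41 without. Spink5 was the more widespread partner: 71 cells had it with no Klk7 transcript and 9 the reverse. For Ctsl and Cst6, by contrast, Cst6 was in 73.2% of the cells with Ctsl and in 75.2% of the 125 cells without. These shares count detection, which depends on the depth of each cell.

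Other genes of the epidermal protease network, from a list of 25 proteases, 20 inhibitors and 10 substrates and receptors, were read in the same fit. Of 20 proteases, 11 inhibitors and 8 substrates or receptors tested, none passed the adjusted edgeR threshold between the classes. With the unadjusted p under 0.05, 5 proteases were higher in the Krt10 class and 1 lower, 2 inhibitors were higher, and 5 substrates were higher, and DESeq2 called the same numbers. Of all genes, 6.13% were higher and 6.15% lower by that edgeR p, and 5.01% and 6.95% by DESeq2. Among the substrates, Dsg1a, a desmosomal cadherin cut by kallikreins, was 336, 177.97, 319.5 and 29.7 CPM in the Krt14 class and 1358, 1476, 756 and 626 in the Krt10 class, a log2 difference of 3.20 (SE 0.54). Cdsn, corneodesmosin, was 37.1, 9.98, 0.931 and 4.96 against 124, 445, 179.6 and 69.4 CPM, 5.13 (SE 1.01). Flg2, a filaggrin relative, was 0, 0, 0 and 3.72 against 3.36, 25.6, 24.5 and 300.4 CPM, 8.91 (SE 1.24), with 3 plates at 0 in the Krt14 class. The inhibitor Cast (calpastatin) was 282, 362, 160.2 and 112.03 against 764, 484, 404 and 378 CPM, 1.77 (SE 0.34). Mmp14, a membrane metalloprotease, was the protease lower in the Krt10 class, 3.78, 12.9, 21.6 and 11.5 against 0.186, 0, 2.48 and 1.60 CPM. Between treatments, over all cells, no gene of the 3 lists passed with edgeR. Before adjustment, 1 protease was higher and 3 were lower with PRT4165 at a p under 0.05, out of 23 tested, where 2.79% and 2.13% of all genes were. DESeq2 called 1 higher and 2 lower, and 1.36% of all genes in either direction. These examples were chosen after their values were seen.

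The next comparison asked whether PRT4165 changed these genes. With edgeR no member passed over all cells, 0 of 36, as for all 12789 genes (0%), and the median log2 difference of the members was -0.16 against -0.02 over all genes. By the unadjusted p under 0.05, 2 members were higher with PRT4165, against 2.79% of all genes, and 3 were lower, against 2.13%. DESeq2 called 1 member, Serpinb3d, and limma called none. Both PRT4165 plates lay above both vehicle plates for 4 of the 36 members, against 15.4% of all genes, and below them for 7, against 16.3%, so neither share of members was far above that of all genes.

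With vehicle Klk7 measured 4152 and 1234 CPM, and with PRT4165 594 and 485 CPM. The groups did not overlap, and the log2 difference was -2.37 (SE 0.65, edgeR adjusted p 0.862). Its vehicle plates differed from each other by more than the PRT4165 plates did, and 1 cell held 77.5% of the counts of the highest. In the Krt10 class without the top cell of each plate, Klk7 was 1276, 2410.2, 993 and 487 CPM, still apart. Spink6 was 76.6 and 8.30 against 4.84 and 5.43 CPM (-3.12, SE 1.12, edgeR adjusted p 0.931) and Serpinb11 152.7 and 119 against 38.6 and 60.6 CPM (-1.43, SE 0.58, edgeR adjusted p 0.988). In the other direction, Serpinb3d was 4.03 and 4.84 against 83.1 and 26.2 CPM (3.63, SE 0.83, edgeR adjusted p 0.862), Serpinb3a 0.776 and 1.15 against 12.4 and 5.02 CPM (3.20, SE 1.13, edgeR adjusted p 0.923) and Ctsz 2.91 and 0.663 against 4.99 and 10.99 CPM. Serpinb3d had a count in 14 cells, and the highest cell of each plate gave 93.3, 92.3, 70.7 and 55.1% of it. The members of this paragraph were picked by a rule that asked for both PRT4165 plates beyond both vehicle plates. Their separation over all cells is therefore no result of its own.

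The leading genes of the other families overlapped between the treatments. Serpinb5 was 2737 and 2389.6 against 2623 and 3115 CPM, Spink5 1665 and 1215 against 1225 and 573 CPM, Ctsl 993 and 1211 against 829 and 1726 CPM, Cst3 288 and 319.5 against 237 and 328.9 CPM and Ctsb 282 and 374 against 309 and 263 CPM. Cst6 was 32268 and 40866 against 14080.4 and 32623 CPM, with PRT4165 replicate 1 low and replicate 2 level with the vehicle plates. Klk5 was 40.6 and 51.4 against 23.1 and 33.1 CPM, lower on both PRT4165 plates, and Klk10 154.3 and 826 against 757 and 160.5 CPM. For Spink5 the PRT4165 values were 1 within and 1 below the vehicle range. None of these members had an edgeR adjusted p under the threshold.

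Within the Krt14 class no member passed the edgeR test, 0 of 33, as for all 11929 genes (0%). At an unadjusted p under 0.05, 6 members were lower with PRT4165, against 2.62% of all genes, and 1 was higher, against 3.10%. Cst6 stood apart with 26008 and 22602 CPM with vehicle and 5118 and 3872 CPM with PRT4165, a log2 difference of -2.35 (SE 0.25, edgeR adjusted p 0.184). With the replicate block, which pairs plates of the same batch number, the difference was -2.35 with an edgeR adjusted p of 0.00883 and Cst6 was the only gene called, and with DESeq2 its adjusted p was 0.0118. Without vehicle replicate 2 the adjusted p was 0.00949 and without PRT4165 replicate 2 it was 0.0317, but such a fit has 1 plate against 2, takes its spread from the other arm alone and assumes that the lone plate varies like it. Neither fit in which each cell weighed the same made the call. The mean CPM of cells was 18464 and 15628 with vehicle and 4122 and 6476 with PRT4165, still apart. On the mean over cells of log2(CPM + 1) the difference was -0.17 (limma adjusted p 0.970). Over its 15 alternatives the adjusted p ran from 0.00883 to 0.970, and it passed in 4.

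The cells behind these sums were few. Cst6 was found in 48.6, 72.2, 56.1 and 80% of the Krt14 class cells of the 4 plates, and the median cell had 0, 21.5, 2.29 and 14.0 CPM, so both overlapped between the treatments. Cells with at least 10000 CPM numbered 6 and 3 with vehicle and 1 and 6 with PRT4165. The highest cell gave 38.5, 60.8, 76.2 and 63.9% of the counts, and without it the sums were 16581, 9345, 1251 and 1423 CPM, still apart. With the class limit at -2, the difference was -1.95 (edgeR adjusted p 0.767). In the same class the upper follicle list was at 20019.6, 6780.1, 9363 and 2456 CPM and the sebaceous gland list (7 genes) at 918, 2622, 1834 and 5659 CPM, and their part in the result was not tested. Klk7 and Spink5 had fitted log2 differences of -1.95 and -2.39 (SE 0.60 and 0.82) in this class, with edgeR adjusted p of 0.774 and 0.792.

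Within the Krt10 class no member passed with edgeR, 0 of 33, as for all 10394 genes (0%), and DESeq2 called none of them. The unadjusted p was under 0.05 for 2, Klk7 and Serpinb3a, against 5.71% of all genes. Klk7 was 6284 and 3016 CPM with vehicle and 1195 and 895 CPM with PRT4165 (-2.32, SE 0.64, edgeR adjusted p 0.683). Cst6 was 37519 and 82572 against 26916 and 60352 CPM here, so the groups overlapped (-0.49, SE 0.56).

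**Figure D5:**
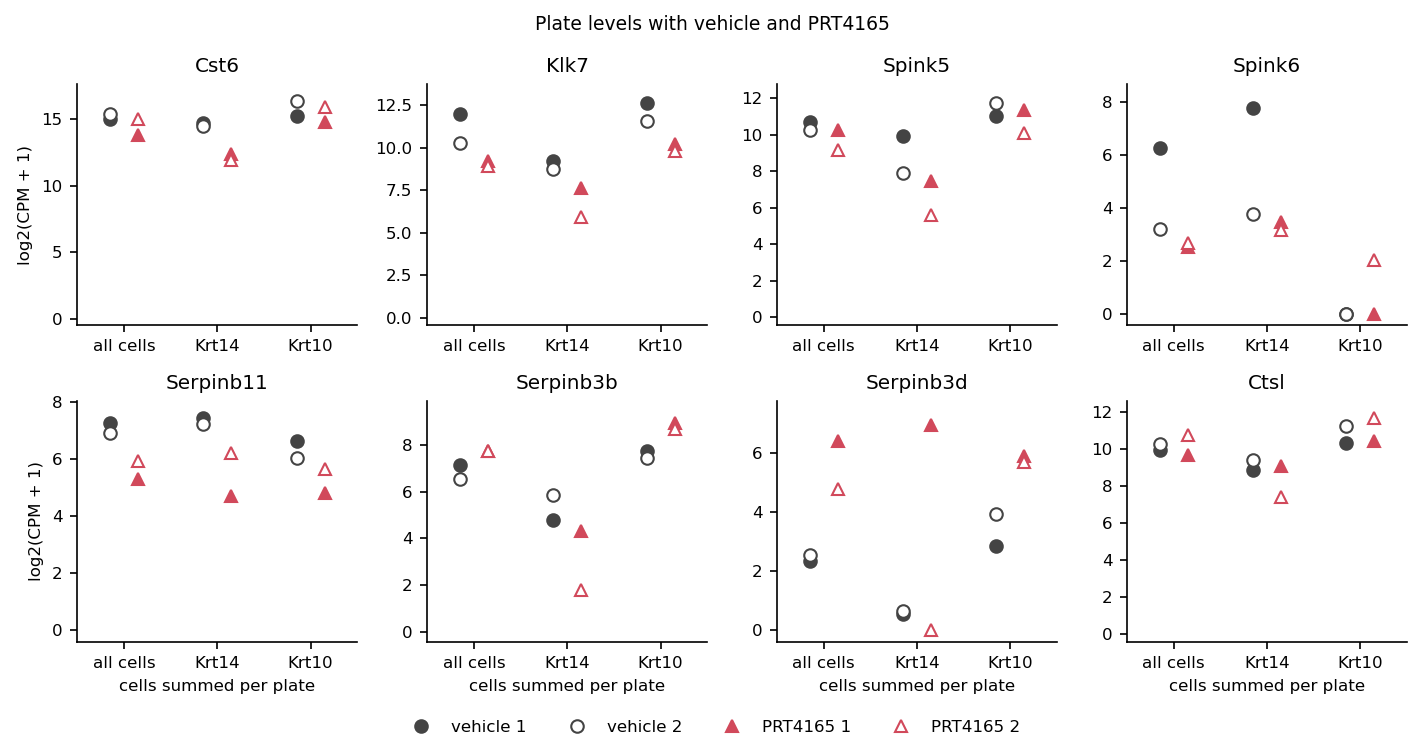
Level of 8 genes per plate, as log2(CPM + 1), over all cells and within each class, with vehicle plates as grey circles and PRT4165 plates as red triangles (replicate 1 filled, replicate 2 open). Klk7 is lower on both PRT4165 plates in all 3 sets of cells, and Cst6 is lower on both in the Krt14 class and mixed in the Krt10 class.

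Whether the class difference itself differed between the treatments was tested with an interaction term on the 8 sums. No member passed with edgeR, 0 of 36, as for all genes (0%), and DESeq2 called no member. At an unadjusted p under 0.05 there were 4 members, Serpinb3b, Cst6, Ctso and Klk9, against 4.12% of all genes. For Cst6 the log2 difference between the classes was 0.529 and 1.87 with vehicle and 2.39 and 3.96 with PRT4165, and the interaction was 1.77 (SE 0.61, edgeR adjusted p 1). For Serpinb3b it was 2.93 and 1.57 against 4.64 and 6.88, an interaction of 3.53 (SE 1.19, edgeR adjusted p 1).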

How the data were processed

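Single tomato-positive keratinocytes were sorted into 4 plates and processed with a modified Smart-seq2 protocol without molecular identifiers, and single-end reads of 75 bases were made on a NextSeq 500. The authors quantified transcripts with Salmon 0.13.1 against Ensembl annotation of GRCm38 and deposited a table of estimated counts per gene and cell, not normalized, of which 18.3% of the values above 0 were not whole. Which gene models Salmon could not separate was checked as the share of 75-base stretches held in common. A cell was kept with at least 1000 genes and at most 50% mitochondrial counts, which left out 15 of 289 cells.

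The plate was the replicate. Counts were summed per plate, or per plate and class, and rounded, and edgeR 4.0.16 (quasi-likelihood test, TMM factors, filterByExpr, R 4.3.3) was fitted to all genes, with p-values adjusted by Benjamini-Hochberg and called under 0.05. Treatment was fitted on 4 sums over all cells and within each class, and the class contrast on 8 sums with the plate as a term. For the class contrast the filter was grouped by class, so a gene could pass through either class alone. Krt10 and Krt14 were left out of all counts of calls. DESeq2 1.42.0, limma 3.58.1, other cell and gene filters, other class limits, and the fit without each plate were alternatives. The labels call the replicate number a batch. The main treatment fits did not pair plates, and same-numbered plates were paired only in the replicate block, an alternative. The deviations of vehicle and PRT4165 replicate 1 from their group means correlated only at 0.0427 across 12789 genes. No plate held both treatments, which leaves plate effects and treatment inseparable.

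The members, classes and gene lists were chosen with earlier results of these data known. The genes named were the 4 (6 in Serpinb and Cts) of highest level in each family, those past the threshold between classes, the 3 of smallest p in each direction between treatments, and Klk5, Klk7, Klk10, Spink5, Cst6, Cst3, Ctsb, Ctsd, Ctsl, Ctsc, Serpinb2 and Serpinb5. Members outside this rule (Klk6, Klk9, Klk11, Serpinb1a, Serpinb3c, Serpinb7, Serpinb8, Ctso and those that failed the filter on low counts) were named after their values were seen. The edgeR fits of treatment over all cells, of the class contrast and of the interaction were run on simulated counts. Changes were planted only in genes of higher counts, with the same starting level on all plates. The rates below therefore do not carry over to members of low counts. Of changes of 2 on the log2 scale they recovered 0 of 107, 7 of 101 and 0 of 104. Of changes of 3 they recovered 17 of 93, 12 of 99 and 0 of 96. Unchanged genes called numbered 5, 0 and 0. The other fits were not simulated. Counts without molecular identifiers are not independent molecules.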

Additional observations from a re-analysis of the deposited data

Results flagged for a closer look

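Among 25 members examined, the difference between classes (log2(CPM + 1), Krt10 class minus Krt14 class) had 1 plate far from the other 3 for 2 members, where chance alone would give about 1 in 20. For Ctsl the difference was 4.226 on PRT4165 replicate 2 and between 1.32 and 1.79 on the other plates. For Spink12 it was 0.1691 on vehicle replicate 1 and 0 on the other plates, from 2 cells in all, so that value rests on next to no counts.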

How the results depend on the processing

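Of the counts of members called, 58 alternatives stayed within 1.5 times the main count and 13 moved. Between the classes, 1 member was called by edgeR, 21 by DESeq2, 12 by limma with equal weight per cell, 3 without the filter on low counts, 3 with stricter cells, 3 with the class limit at -2, 4 without cells between -2 and 2, and 19 by limma on the mean over cells of log2(CPM + 1). The last setting and plain library sizes were chosen after seeing the data. Leaving out 1 plate gave 0 to 1 called members: 0 without vehicle replicate 2, and Spink5 in place of Klk7 without vehicle replicate 1. Over all genes these settings called 10, 1306, 435, 44, 41, 27, 41 and 1418 genes in the order given, 2 with plain library sizes and 0 to 5 without 1 plate.

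Between treatments over all cells, DESeq2 called 1 member and 1.36% of all genes, limma on mean log2 values 19 genes and edgeR 0. In the Krt14 class, DESeq2 called 1 member and 1.46% of all genes, limma on mean log2 values 7 genes, the replicate block 1 member, and leaving out 1 plate 0 to 2 members and up to 41 genes, with the lone plate of an arm assumed to vary like the other arm. In the Krt10 class, DESeq2 called 254 genes, the fit without the low-count filter 62 and fits without 1 plate up to 4, none of them members. The interaction had 0 calls by edgeR and 1.75% of genes by DESeq2. The replicate block changed no other call.

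Signs turned as follows. With equal weight per cell, the class difference of Spink2 was -0.50, of Cst3 -0.081 and of Ctsd -0.076. With plain library sizes that of Spink2 and of Ctsd was -0.18 each and of Ctsh -0.0073. On mean log2 values that of Ctsl was -0.085 and of Ctsc -0.020, and the interaction of Cst6 was -1.84. With stricter cells Serpinb11 was 1.01 and Ctsc -0.18, and without cells between -2 and 2 Serpinb11 was 0.046 and Spink2 -4.43. Without 1 plate Serpinb11 ran from -0.30 to 0.10, Spink2 from -2.13 to 1.76, and the treatment difference of Cst6 in the Krt10 class from -1.29 to 0.013. In each of these the cause was not tested. Of the other values of single members, 458 kept their side of the threshold, 52 came to pass it and 2 ceased to.

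With 2 plates per treatment, little can be seen between treatments, and a value that misses the threshold does not show that levels were alike. Members found in few cells rest on 1 or a few of them.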
